A study of Mus musculus with 2 samples.

Results

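The genes described here are 9 biliary and epithelial genes: Spp1, Epcam, Cd24a, Sox9, Krt7, Krt19, Krt8, Krt18 and Cdh1. They were taken by symbol from the 31053 genes of the deposited tables, and all 9 were found there. They were chosen by measured values of these same libraries, namely the UMI counts of Epcam and Cd24a in a few droplets and the low counts of other members across hepatocytes. The study compared single liver cells of C57BL/6 mice kept for 6.5 weeks on chow with those of mice kept for 6.5 weeks on a NASH diet, that is, food high in fructose, fat and cholesterol that is used to model non-alcoholic steatohepatitis. Collagenase was used to free the cells, which were then passed over Percoll to recover hepatocytes of several densities and non-parenchymal cells. Each diet had 1 library, and the sources used here do not give the age, sex or number of mice behind it. With 1 library per diet there was no test between diets: every interval below covers counting error only, and a difference between diets cannot be told apart from a difference between mice or preparations.

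Cholangiocytes line the bile ducts of the liver and are told from hepatocytes by the keratins Krt7 and Krt19, the adhesion protein Epcam, the surface glycoprotein Cd24a and the transcription factor Sox9. Spp1 encodes osteopontin, a secreted phosphoprotein that binds integrins and Cd44 and is made by bile duct cells and by activated macrophages. Hepatocytes carry only the simple keratins Krt8 and Krt18, which pair into the filaments of the cell, and those next to the portal vein also carry E-cadherin, the product of Cdh1.

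The chow library held 71635757 UMIs (unique molecular identifiers, each standing for 1 captured RNA molecule) in 7359 barcodes, and the NASH diet library 39440182 UMIs in 5881 barcodes. The median barcode held 4843 and 2305 UMIs, of which a median of 20.7% and 34.3% were mitochondrial. A barcode was kept if it had 200 genes and 500 UMIs or more and its mitochondrial share did not exceed 30%, which left 4326 of chow and 2369 of the NASH diet. The libraries shared 69 barcode sequences, and 0 of these were among the Epcam and Cd24a barcodes. Among kept barcodes, 1999 of chow and 1061 of the NASH diet had at least 5000 UMIs and hepatocyte RNA and reached no other class's marker bounds. These are called hepatocyte barcodes, and UMIs of other cell types' markers below those bounds were allowed in them. They were deep, with a median of 25821 and 20583 UMIs. Barcodes with fewer UMIs but the same RNA numbered 2156 and 1099, and the endothelial, Kupffer cell, leukocyte and mesenchymal classes held between 13 and 73 barcodes each.

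In hepatocyte barcodes Spp1 was read in both libraries and Epcam had only 1 UMI in chow and 5 in the NASH diet. The regions before these 2 genes are shown first. They are the 250 bases before the start of transcription in the RefSeq table of build GRCm38.p6, at chr5:104434861-104435110 for Spp1 (the first of its 2 entries) and chr17:87635729-87635978 for Epcam, both on the + strand. Capitals mark matches, on either strand, to the TATA box with letters TATAAA, the GC box with letters GGGCGG, the HNF1 half-site with letters GTTAAT, the SOX site with letters ACAAAG and the CCAAT box.
Spp1: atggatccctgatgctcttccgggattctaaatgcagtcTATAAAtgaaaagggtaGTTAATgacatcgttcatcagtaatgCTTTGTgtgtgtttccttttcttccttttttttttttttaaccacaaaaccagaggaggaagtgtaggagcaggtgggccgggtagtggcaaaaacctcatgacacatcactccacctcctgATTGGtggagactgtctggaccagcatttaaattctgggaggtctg
Epcam: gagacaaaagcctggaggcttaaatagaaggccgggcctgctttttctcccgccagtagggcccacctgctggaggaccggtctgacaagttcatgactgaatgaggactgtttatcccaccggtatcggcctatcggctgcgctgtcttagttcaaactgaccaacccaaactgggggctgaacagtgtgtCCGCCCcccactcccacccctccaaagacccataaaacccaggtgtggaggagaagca
The Spp1 window held 1 match each to the TATA box, the HNF1 half-site, the SOX site and the CCAAT box, none overlapping, and 0 to the GC box. The TATA box began 211 bases before the start. The Epcam window held 1 GC box and none of the other 4 motifs. Of 32851 RefSeq windows of this length, 12.4% held the TATA box, 32.7% the GC box, 6.43% the HNF1 half-site, 16.5% the SOX site and 33.8% the CCAAT box. G and C made up 43.6% of the Spp1 window and 56.4% of the Epcam window. A match is a string of letters and was not tested as a binding site. Of the 9 genes, 5 had an entry in the table, and Cd24a, Sox9, Krt19 and Cdh1 had none. The windows of Krt7, Krt8 and Krt18 are not shown because they run into annotated transcripts.

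In whole libraries the members differed widely in how much RNA was read. For Krt8 the chow library held 10840 UMIs and the NASH diet library 8267, and for Krt18 they held 11150 and 6641. Spp1 had 6068 and 2261, Cdh1 2326 and 649, and Sox9 1925 and 592. The remaining members were rare: Cd24a had 24 and 119 UMIs, Epcam 12 and 135, Krt19 7 and 63, and Krt7 1 and 23. So the rare members had more UMIs in the shallower NASH diet library, while Spp1, Sox9 and Cdh1 had fewer. These totals are not of duct cells alone. Of the NASH diet Epcam UMIs, 54 lay in 1 barcode, and 32 and 5 in barcodes with intestinal genes, described at the end. Of the Cd24a UMIs, leukocyte barcodes held 15 in chow and 12 in the NASH diet, and erythroid barcodes of the NASH diet held 9.

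Few barcodes held RNA of Epcam and Cd24a together. There were 3 among the kept chow barcodes (0.0693%, exact Clopper-Pearson 95% interval 0.0143 to 0.203) and 5 among those of the NASH diet (0.211%, 0.0686 to 0.492). The intervals overlapped, so a difference in share was not detectable at these numbers. A further 3 NASH diet barcodes and 0 chow barcodes passed the same gate but exceeded the mitochondrial limit, at 32.6%, 73.3% and 79.5%. Digestion and Percoll steps set which cells were recovered, so these shares are of captured droplets, not of the liver.

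The 8 kept barcodes were of different kinds. In the first chow barcode, with 7087 UMIs, Epcam and Cd24a had 2 UMIs each, Spp1 had 0 and the further cholangiocyte genes of a list of 17 had 0. It held 2163 UMIs of Igkc, 1066 of Ighm and 148 of Jchain, which encode antibody chains of B and plasma cells, so the gate alone did not mark a duct cell. The second chow barcode, with 7579 UMIs, held 138 of Spp1, 7 of Epcam, 1 of Cd24a, 5 of Sox9, 4 of Krt19, 10 of Krt8, 14 of Krt18 and 4 of Cdh1, and 9 of the further cholangiocyte genes were read in it. Only 1.16% of its UMIs came from 12 hepatocyte genes such as Alb. The third chow barcode held 24 UMIs of Spp1 among 17038, and 8.13% of its UMIs came from the hepatocyte genes, close to the 9.66% of chow hepatocyte barcodes.

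In the NASH diet library, barcodes 1, 2 and 5 had the ductal pattern with little hepatocyte RNA, at 0.553%, 0.765% and 0.757%. Spp1 had 128, 182 and 1076 UMIs in them, Epcam 2, 12 and 54, Sox9 18, 11 and 33, Krt7 1, 4 and 11, and Krt19 1, 4 and 22. Barcode 5 was the deepest of the gate, with 51761 UMIs and 8012 genes, and barcode 1 also held endothelial RNA (0.533% of its UMIs). NASH diet barcodes 3 and 4 held 58 and 54 Spp1 UMIs, 0 of Sox9 and Krt7, and 14.6% and 15.8% hepatocyte RNA, above the 11.6% of that library's hepatocyte barcodes. They also held 0 and 5 UMIs of Krt19, and 16 and 19 UMIs from 9 and 8 further cholangiocyte genes. Per 10000 UMIs, Spp1 was at 126 to 208 in the 3 NASH diet barcodes with little hepatocyte RNA and at 182 in the second chow barcode, against 14.1 to 21.8 in the 3 barcodes with much of it.

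**Figure D1:**
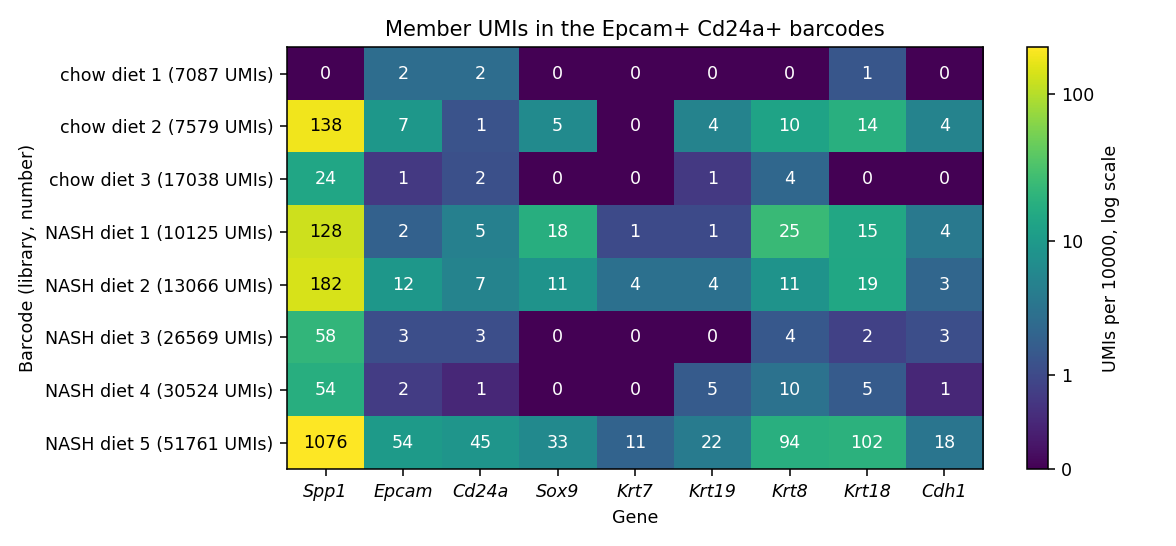
UMIs of the 9 genes (columns, numbers in the cells) in the 3 chow and 5 NASH diet barcodes with Epcam and Cd24a UMIs (rows, with their total UMIs), coloured by UMIs per 10000 on a log scale. Chow barcode 2 and NASH diet barcodes 1, 2 and 5 carry Sox9 and Krt19 beside Spp1. Chow barcode 1 lacks Spp1, and chow barcode 3 and NASH diet barcodes 3 and 4 lack Sox9. Krt7 has 0 UMIs in all chow barcodes and in NASH diet barcodes 3 and 4. Krt19 has 1 UMI in chow barcode 3 and 5 in NASH diet barcode 4.

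Summed over the gate, Spp1 stood at 5110 CPM (the depth-scaled unit of UMI counts; exact Poisson 95% interval 4353 to 5960) for chow and at 11345 CPM (10777 to 11934) for the NASH diet, a log2 ratio of NASH diet over chow of 1.15 (0.92 to 1.39). Sox9, Cd24a, Krt8 and Krt18 were also more than 2-fold higher, with log2 ratios of 1.57, 1.55, 1.30 and 1.19. Epcam (0.81), Cdh1 (0.80) and Krt19 (0.62) were higher by less than 2-fold, with intervals that included 0. Krt7 had 0 UMIs against 16, and the exact interval of its log2 ratio began at -0.11, so it also included 0. Thus 5 of the 8 members with at least 20 UMIs were past 2-fold, all higher in the NASH diet, where 31.6% of 1103 genes with as many UMIs were past 2-fold higher and 5.35% lower, and the median of those genes was 0.46. Since Epcam and Cd24a chose the barcodes and results of these libraries chose the list, nothing is read from that count.

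These ratios rested on the barcodes with antibody or hepatocyte RNA. When those were left out, a choice made after seeing the data, 1 chow and 3 NASH diet barcodes remained and 1 of 8 members was past 2-fold, Cd24a at 2.53 (-0.01 to 7.86). Spp1 then had a log2 ratio of 0.02 (-0.23 to 0.29), Sox9 0.33, Krt8 0.39, Krt18 -0.03, Epcam -0.03, Krt19 -0.55 and Cdh1 -0.66, all with intervals that included 0. Barcode 5 of the NASH diet supplied 1076 of the 1498 Spp1 UMIs on that side.

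The further cholangiocyte genes were read in the gate in both libraries, 9 of 17 in chow and 15 of 17 in the NASH diet, with 33 and 350 UMIs. Bicc1, an RNA-binding protein of ducts and tubules, had 4 and 60 UMIs. The tight junction protein Cldn3 had 5 and 54, Pkhd1, a protein of the primary cilium, 8 and 36, and the claudin Cldn7 5 and 37. Cftr, the chloride channel of duct cells, had 0 in both. Of 20 junction genes 11 and 19 were read, led by the desmosomal cadherin Dsg2 with 5 and 56 UMIs and by beta-catenin, Ctnnb1, with 12 and 45. Of 17 Notch and YAP pathway genes 5 and 14 were read, and of 10 osteopontin receptor genes 1 and 6. The YAP targets Cyr61 and Ankrd1 had 3 and 64, and 1 and 37 UMIs, and the Notch target Hes1 had 17 and 86. The chow gate held 31704 UMIs and the NASH diet gate 132045, and the part of that depth in these counts was not tested.

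Barcodes just outside the gate had RNA of 1 of its genes. Of 10 kept chow barcodes with Cd24a but no Epcam, 9 were leukocyte barcodes and 1 a Kupffer cell barcode, with 0 Spp1 UMIs in all 10. Of 14 such NASH diet barcodes, 4 were leukocyte, 4 erythroid, 4 hepatocyte, 1 mesenchymal and 1 of no class. Cd24a is also known from lymphoid and erythroid cells. The 4 hepatocyte barcodes among them held 77 Spp1 UMIs and 33 UMIs of further cholangiocyte genes. Kept barcodes with Epcam but no Cd24a were 1 in chow and 7 in the NASH diet, and 1 and 5 of these were hepatocyte barcodes with 53 and 29 Spp1 UMIs.

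By their levels over barcode classes the members fell into groups. Epcam, which chose the gate, Krt7 and Krt19 were at 315, 0 and 158 CPM in the chow gate and at 553, 121 and 242 CPM in the NASH diet gate. They had at most 5 UMIs each in either library's hepatocyte, low-UMI, endothelial, Kupffer cell, leukocyte, mesenchymal and erythroid barcodes, the highest level being 8.24 CPM from 1 Epcam UMI in NASH diet Kupffer cell barcodes. Outside those classes, NASH diet barcodes of no class had Krt19 at 18.7 CPM, from 4 UMIs in 1 barcode. NASH diet barcodes with 30 to 80% mitochondrial UMIs had Epcam at 8.83 CPM, from 55 UMIs. Cd24a was at 158 and 462 CPM in the gate, 108 and 43.1 in leukocyte barcodes and 0 and 180 in erythroid barcodes. Spp1, Sox9 and Cdh1 were high in the gate, intermediate in hepatocytes and at or near 0 in endothelial and Kupffer cell barcodes. Spp1 was read in 0 of 54 endothelial and 0 of 73 Kupffer cell barcodes of chow, at median depths of 4854 and 4587 UMIs, and in 0 of 48 and 1 of 42 of the NASH diet, at 5501 and 1297 UMIs. For 0 barcodes the exact upper limits were 6.60% (endothelial) and 4.93% (Kupffer cell) in chow and, for NASH diet endothelial barcodes, 7.397%. Hepatocyte barcodes thinned to 5000 UMIs had Spp1 in 15.3% of chow and in 4.05% of the NASH diet. The endothelial and Kupffer cell barcodes were not brought to that depth, so these shares are not set against those limits. The part of free RNA in any class was not tested.

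Krt8 and Krt18 were read in every class with more than 10 barcodes. In endothelial barcodes Krt8 was at 53.2 CPM in chow and 100.8 in the NASH diet, and in hepatocyte barcodes at 186 and 243. Outside the gate, and among the classes named above with more than 10 barcodes, both keratins were highest in droplets of few UMIs: Krt8 was at 336 and 534 CPM and Krt18 at 420 and 492 in barcodes with hepatocyte RNA and under 5000 UMIs. The medians there were 669.5 and 1196 UMIs, and the part of depth or cell damage in those levels was not tested.

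**Figure D2:**
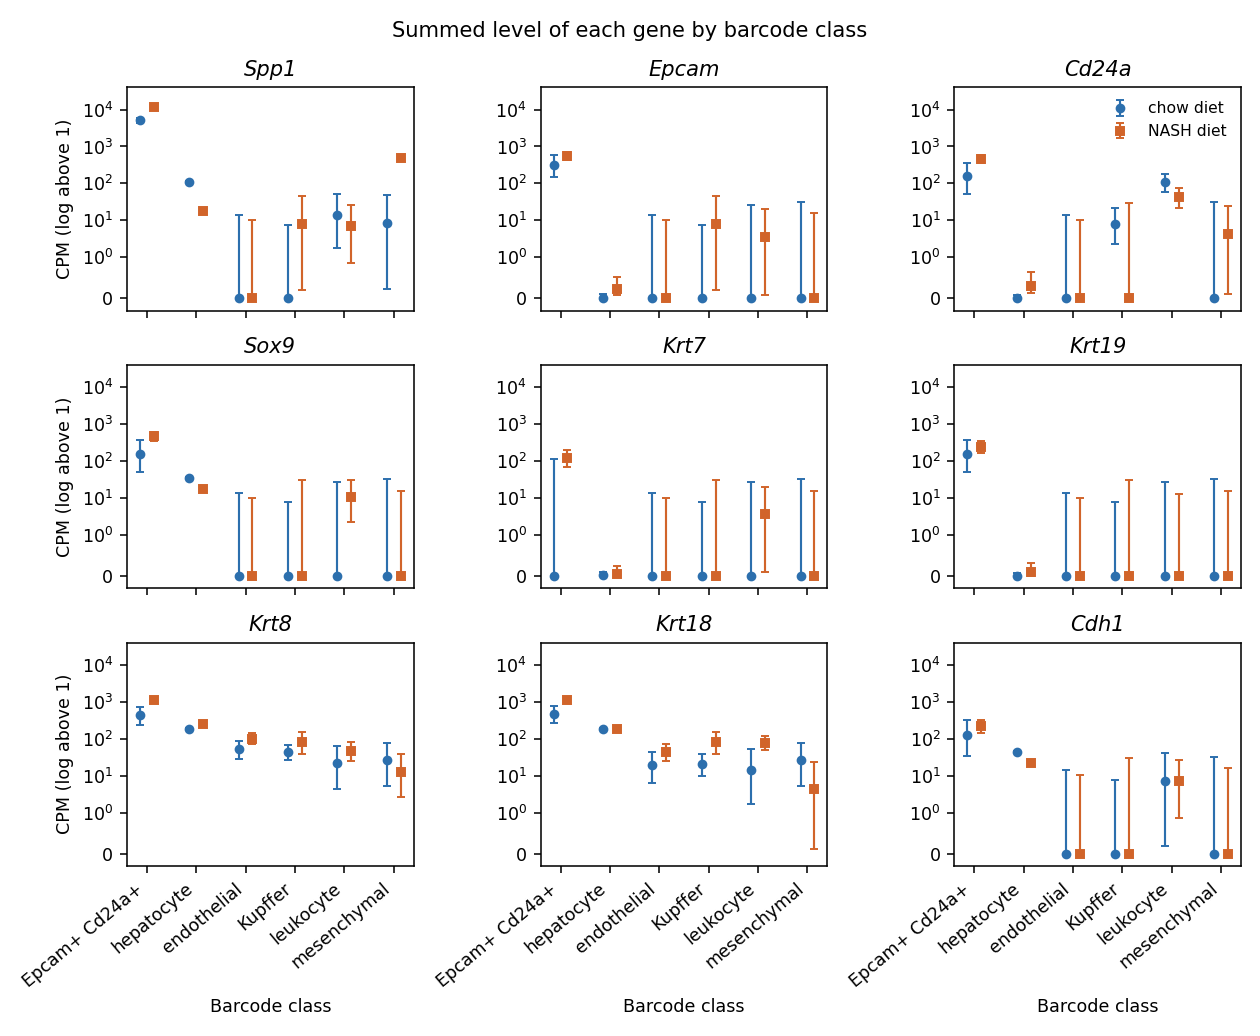
Summed level of each gene in CPM (log scale above 1 CPM, linear below) in 6 barcode classes of the chow (circles) and NASH diet (squares) libraries, with exact Poisson 95% intervals. Epcam, Krt7 and Krt19 reach 100 CPM in the Epcam+ Cd24a+ class alone, Krt7 only in the NASH diet. Spp1, Sox9 and Cdh1 are also read in hepatocyte barcodes. The NASH diet Spp1 point in mesenchymal barcodes comes from 1 barcode with 114 UMIs.

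By likeness across the 22 class and library levels (Pearson's r of log2(CPM + 10), over 1103 genes with at least 20 UMIs in the gate), the genes nearest to Epcam were Tspan8 (0.989), Scara3 (0.988), Cldn7 (0.986), 1700011H14Rik (0.979), Fxyd3, Ddit4l, Fmo2, Shank2, Plet1 and Prom1 (0.957). Among members Krt19 came closest to Epcam, at 0.955, then Spp1 at 0.867, Sox9 at 0.849 and Cdh1 at 0.845, while Krt8 and Krt18 were at 0.529 and 0.444. The genes nearest to Spp1 were Shank2 (0.913), Plet1 (0.894), Tspan8 (0.876), Scara3 (0.874) and Cdh1 (0.868). These are descriptions: the points share libraries, differ in depth, and include the gate itself.

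In hepatocyte barcodes Spp1 was lower in the NASH diet library. It had 5661 UMIs among 51274175 in chow, 110 CPM, and 413 among 22735019 in the NASH diet, 18.2 CPM. This is 6.08-fold lower, a log2 ratio of -2.60 (-2.75 to -2.46). Sox9 stood at 35.4 and 17.7 CPM (-0.997, -1.16 to -0.84) and Cdh1 at 43.8 and 22.3 CPM (-0.98, -1.12 to -0.84), both just inside the 2-fold bound. Krt8 was higher by 0.38 (0.34 to 0.43), and Krt18, at 188 and 182 CPM, had a log2 ratio of -0.05 (-0.10 to 0.01). So the 2 partner keratins did not keep the same ratio: Krt18 had 9654 UMIs against 9562 of Krt8 in chow, and 4147 against 5531 in the NASH diet.

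Of the 5 members with at least 20 UMIs in hepatocyte barcodes, 1 was past 2-fold, Spp1, which was lower. Among all 11548 genes with as many UMIs, 4.17% were past 2-fold lower and 5.52% higher, and their median log2 ratio was 0.11. Counts across hepatocytes of these libraries helped choose the list, so nothing is read from the count of 1 of 5. Spp1 kept a log2 ratio between -2.84 and -2.32 in the 11 other settings tried. Sox9 ranged from -1.02 to -0.41, the weakest value coming from barcodes with at most 10% mitochondrial UMIs, of which there were 156 and 117. In that setting the Sox9 interval was -1.54 to 0.67, which included 0, and Cdh1 had fewer than 20 UMIs and was given no ratio. The libraries' hepatocyte barcodes also differed in their mitochondrial share, with medians of 18.4% and 23.4%, and the part of that in these ratios was tested only through the mitochondrial limits.

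The strict duct markers were nearly absent from hepatocyte barcodes, and the classing fixed part of this, since barcodes with both Epcam and Cd24a were set apart first. These included chow barcode 3 and NASH diet barcodes 3 and 4, with 8.13%, 14.6% and 15.8% hepatocyte RNA. They held 1, 3 and 2 UMIs of Epcam, 2, 3 and 1 of Cd24a, and 1, 0 and 5 of Krt19. Among hepatocyte barcodes, chow held 1 UMI of Epcam, 1 of Krt7, and 0 of Cd24a and Krt19, where the exact upper limit for 0 is 0.0719 CPM. The NASH diet held 5 of Epcam, 7 of Cd24a, 1 of Krt7 and 2 of Krt19. For Cd24a the exact interval of the log2 ratio began at 1.70, and for Epcam the log2 ratio was 3.495 with an interval of 0.34 to 9.06. Those 7 Cd24a UMIs lay in 4 barcodes, and 6 of them in barcodes with 10 or more Spp1 UMIs.

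At equal depth the share of hepatocyte barcodes with a UMI showed the same order. With each barcode thinned to 5000 UMIs, Spp1 was read in 15.3% of chow (13.8 to 17.0) and 4.05% of NASH diet barcodes (2.95 to 5.42). Sox9 was read in 14.1% and 6.88%, Cdh1 in 18.0% and 10.1%, Krt8 in 56.7% and 58.8%, and Krt18 in 55.9% and 52.4%. In endothelial barcodes, unthinned, Krt8 was read in 16.7% and 10.4% and Krt18 in 5.56% and 4.17%. No hepatocyte barcode was left out at this depth. Unthinned, the shares were 27.0% and 10.2% for Spp1, 47.5% and 26.4% for Sox9, 45.3% and 30.1% for Cdh1, 94.4% and 93.8% for Krt8, and 93.1% and 86.2% for Krt18.

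Spp1 was unevenly spread over hepatocytes. Barcodes with at least 10 Spp1 UMIs, called Spp1-rich here, numbered 147 for chow (7.35%, 6.25 to 8.59) and 10 for the NASH diet (0.943%, 0.453 to 1.73). They held 81.1% and 55.9% of all hepatocyte Spp1 UMIs, and the highest barcode held 313 and 54. Near that bound, 21 and 1 barcodes had exactly 9 UMIs, and 10 and 1 exactly 10. Spp1-rich chow barcodes were somewhat deeper than those with 0 Spp1, with medians of 30407 and 24914 UMIs, and their mitochondrial medians were 16.9% and 18.7%. Of the 139 chow hepatocyte barcodes marked by the highest doublet scores, 3 were Spp1-rich. The 147 chow barcodes held 1 Epcam UMI and 0 of Cd24a, Krt7 and Krt19 among 4460690 UMIs, with 629 of the further cholangiocyte genes. The 10 NASH diet barcodes held 1 of Epcam, 6 of Cd24a, 0 of Krt7 and 2 of Krt19 among 229247 UMIs, with 62 of the further cholangiocyte genes. Barcodes with both Epcam and Cd24a had been set apart before hepatocytes were classed, so the classing fixed part of these low counts. Among them were chow barcode 3, with 24 Spp1 UMIs and 8.13% hepatocyte RNA, and NASH diet barcodes 3 and 4. The latter held 58 and 54 Spp1 UMIs and 14.6% and 15.8% hepatocyte RNA.

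**Figure D3:**
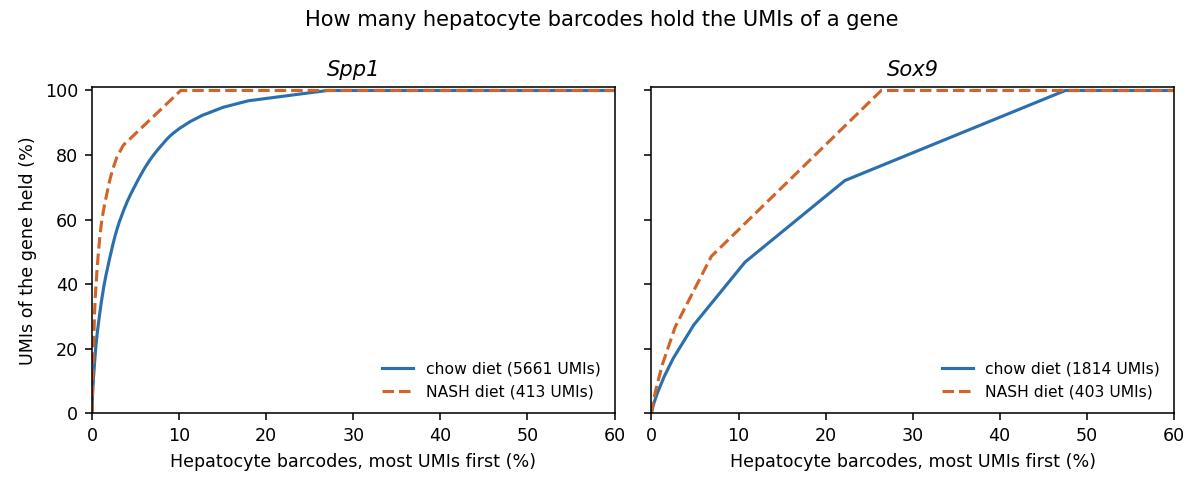
Share of all hepatocyte UMIs of Spp1 (left) and Sox9 (right) held by a growing share of hepatocyte barcodes, ordered from the most UMIs of the gene, in chow (solid) and the NASH diet (dashed). The Spp1 curves rise steeply, since 147 of 1999 chow barcodes hold 81.1% of its UMIs, while those of Sox9 rise slowly up to its 47.5% and 26.4% of barcodes with a UMI.

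Hepatocytes differ along the axis from the portal vein, where blood enters the lobule, to the central vein. Each library's hepatocyte barcodes were ranked by a score of 8 periportal genes against 8 pericentral genes, none of them a member, and cut into 3 equal parts. The score separated known markers: in chow, pericentral Cyp2e1 was at 3595, 350 and 12.1 CPM in the pericentral, middle and periportal parts, and periportal Cyp2f2 at 25.5, 1026 and 1430. In the NASH diet they were at 5301, 287 and 13.1, and 146, 1769 and 1888 CPM. The parts are ranks within a library, so the same part need not hold the same stretch of the lobule in both.

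Spp1 had a steep periportal gradient in chow. It stood at 2.30 (1.64 to 3.13), 62.4 (58.6 to 66.4) and 260 CPM (253 to 268) in the pericentral, middle and periportal parts, a 113-fold range. In the NASH diet the values were 3.61 (2.47 to 5.09), 23.3 (19.8 to 27.2) and 31.5 CPM (27.5 to 36.0), an 8.74-fold range. The diets therefore differed most in the periportal part, by -3.05 on the log2 scale (-3.25 to -2.85), less in the middle (-1.42, -1.68 to -1.18), and not beyond counting error in the pericentral part (0.65, -0.07 to 1.36). Of the 147 Spp1-rich chow barcodes, 113 lay in the periportal part, and the lowest ranked at 40.2% of the way from the pericentral end. Of the 10 in the NASH diet, 6 lay in the periportal part.

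**Figure D4:**
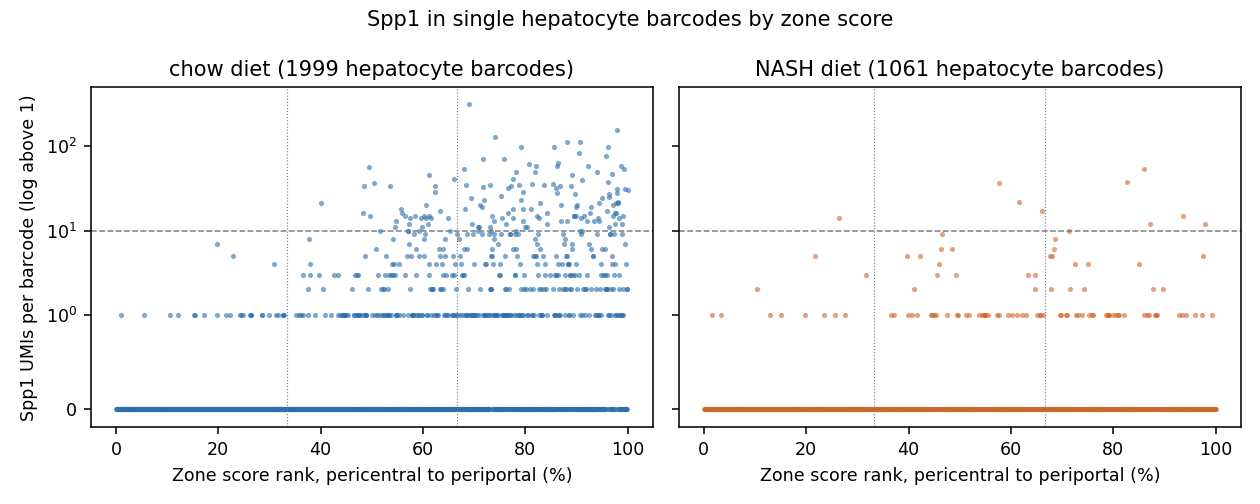
Spp1 UMIs in each hepatocyte barcode (vertical axis, log scale above 1 UMI) against its rank by zone score (horizontal axis, from pericentral at 0 to periportal at 100%), for 1999 chow and 1061 NASH diet barcodes. The dashed line marks 10 UMIs, reached by 147 and 10 barcodes, and the dotted lines part the 3 equal parts.

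Cdh1 was also steeply zoned. It stood at 1.21, 45.5 and 84.0 CPM in chow and at 0.902, 36.2 and 35.6 CPM in the NASH diet, so the middle and periportal parts were level there. The diets differed by -1.24 (-1.43 to -1.04) in the periportal part and by -0.33 (-0.54 to -0.12) in the middle. Sox9 was less zoned, at 19.0, 43.0 and 44.5 CPM in chow and 8.23, 25.5 and 22.2 CPM in the NASH diet. Its log2 ratio between diets was -1.20, -0.76 and -1.005 in the pericentral, middle and periportal parts, so it was lower in all 3. Krt8 varied little by part, at 196, 188 and 176 CPM in chow and 230, 272 and 232 CPM in the NASH diet. Krt18 varied little in chow (176, 198 and 191 CPM) and lowest in the pericentral part of the NASH diet (143, 212 and 203 CPM).

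**Figure D5:**
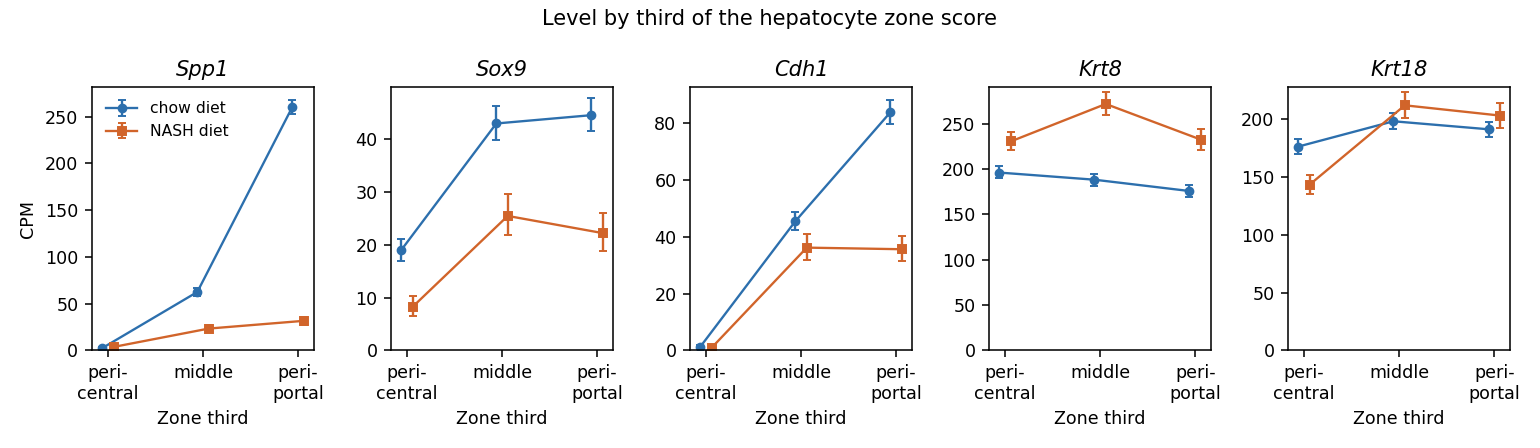
Level in CPM of 5 members in the pericentral, middle and periportal parts of the hepatocyte barcodes of the chow (circles) and NASH diet (squares) libraries, with exact Poisson 95% intervals and axes from 0. Spp1 climbs to 260 CPM in periportal chow barcodes and to 31.5 in those of the NASH diet, and Krt8 lies above chow in all 3 parts.

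Within the periportal part of chow, the 113 Spp1-rich barcodes were compared with 327 barcodes that held 0 Spp1, as a description. Sox9 and Cdh1 did not part them: Sox9 was at 47.0 and 43.7 CPM (log2 ratio 0.10, -0.18 to 0.38) and Cdh1 at 81.9 and 84.7 CPM (-0.05, -0.25 to 0.16). Krt8 and Krt18 were slightly higher in Spp1-rich barcodes, by 0.30 (0.17 to 0.43) and 0.44 (0.31 to 0.56). The periportal enzymes Hal and Cyp2f2 differed by 0.02 and 0.00. Other genes were ranked by their ratio if they had at least 50 UMIs in the Spp1-rich barcodes, a filter that favours genes higher there, so the ranking is a description only. The first was Prelp. This gene, which encodes a leucine-rich repeat protein of the extracellular matrix, had 77 UMIs against 5, or 23.0 against 0.603 CPM (log2 ratio 5.25, 3.97 to 6.92). The next 5 were Cib3 (1.55), Hsd17b6 (1.28), Aldh1b1 (1.24), Cyp4a14 (1.09) and Cyr61 (1.09). The periportal part of the NASH diet had only 6 Spp1-rich barcodes. There Hsd17b6, Aldh1b1 and Cyp4a14 were also higher in them (0.82, 0.84 and 1.54). Cib3 was at -0.03 (-5.37 to 2.52), and Cyr61 had 0 UMIs against 28. These genes were named after their values were seen.

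Prelp was read more often in barcodes with more Spp1 in both libraries. It was read in 0.822%, 4.34% and 17.0% of chow barcodes with 0, 1 to 9 and 10 or more Spp1 UMIs. In the NASH diet the first 2 shares were 0.735% and 3.06%, and the last was 4 of 10 barcodes (exact interval 12.2% to 73.8%). Most Prelp UMIs of either library lay outside hepatocyte barcodes, 177 in chow and 268 in the NASH diet.

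In hepatocytes, the gene lists around the members were compared by the same 2-fold bound. Of 17 further cholangiocyte genes in the files, 7 had at least 20 UMIs there; 0 were past 2-fold higher and 2 lower, the epithelial transcription factor Elf3 (-1.80, 63 and 8 UMIs) and Pkhd1 (-1.17, 152 and 30 UMIs), where 4.17% of all 11548 genes were past 2-fold lower. The list median was -0.12, against 0.11 over all genes. Cldn3 was at 66.4 and 68.8 CPM and the transcription factor Onecut1 at 11.6 and 15.5 CPM. Of 20 junction genes 17 were measured and 0 were past 2-fold either way (median -0.15), although Cdh1, the cadherin that these catenins bind, was 1.97-fold lower. Its partner Ctnnb1 was at 117 and 105 CPM, and N-cadherin, Cdh2, was at 77.1 and 80.05 CPM.

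Of 17 Notch and YAP pathway genes 11 were measured and 1 was past 2-fold, the Notch ligand Jag1, higher at 2.05 and 4.13 CPM (1.01), where 5.52% of all genes were past 2-fold higher. The list median was 0.10. Wwtr1, which encodes the YAP partner TAZ, followed at 13.0 and 25.2 CPM (0.96), while Yap1 was at 36.3 and 35.3 CPM and Hes1 at 54.3 and 53.0 CPM. Of 10 osteopontin receptor genes 4 were measured in hepatocytes and 0 were past 2-fold (median 0.10): Itgb1 stood at 65.0 and 73.5 CPM, Itgb5 at 28.6 and 29.3, Itgav at 22.8 and 25.4, and Itga5 at 10.5 and 5.63. Cd44 was at 699 and 700.5 CPM in Kupffer cell barcodes, at 323 and 161 CPM in leukocyte barcodes and at 190 and 173 CPM in mesenchymal barcodes, with 7 and 6 UMIs in hepatocyte barcodes. Integrin RNA was read in Kupffer cell barcodes too, with Itgb1 at 286 and 297 CPM and Itgb5 at 218 and 288 CPM. Itgb1 was higher still in endothelial (426 and 501 CPM) and mesenchymal barcodes (493 and 514 CPM). Itgb5 was lower there, at 0 and 14.0 CPM in endothelial and 121 and 207 CPM in mesenchymal barcodes.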

How the data were processed

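Per the labels' protocols, single liver cells were sequenced with a 10x Genomics 3' kit. The deposited matrices hold UMI counts in whole numbers, not normalized; the file headers name Cell Ranger 3.0.2, the submitters' processing notes Cell Ranger 3.1.0, Seurat and build mm10. Only each library's own matrix was used, and 0 sample columns were left unmatched. The members and lists were chosen with earlier results of these data known.

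Kept barcodes had at least 200 genes, 500 UMIs and at most 30% mitochondrial UMIs. The Epcam and Cd24a gate needed 1 UMI of each. Other barcodes were classed by marker lists: endothelial, Kupffer cell, leukocyte or mesenchymal with at least 3 UMIs and 0.3% of UMIs from the list, erythroid with 5% haemoglobin, hepatocyte with at least 3% from 12 genes and 5000 UMIs. Levels are summed UMIs as CPM with exact Poisson intervals, shares carry exact Clopper-Pearson intervals, and ratios exact conditional intervals, all at 95%. UMI intervals cover counting error only. Ratios between diets were given for genes with at least 20 UMIs over both libraries, apart from the following, which had fewer. For Krt7 in the gate and Cd24a in hepatocyte barcodes only an interval was given. For Epcam in hepatocyte barcodes a ratio with its interval was given. Code was tested on simulated data. Doublets were not removed in the main values: Scrublet in scanpy 1.11.5 called 0 by its own threshold, and removal of the highest scores (433 and 277 barcodes, 0.8% per 1000) was an alternative. Named genes were the members, the 4 genes of each list with the most UMIs and the 2 with the largest ratios, the 10 genes most like Epcam and the 5 most like Spp1, except where stated. Python 3.11.15, numpy 2.4.6, scipy 1.17.1, pandas 2.3.3 and matplotlib 3.10.9 were used. Sequences came from RefSeq, build GRCm38.p6.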

Additional observations from a re-analysis of the deposited data

How the results depend on the processing

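No paired analysis was possible because each diet had 1 library. The higher share of Epcam and Cd24a barcodes in the NASH diet kept its direction in the 8 settings tried, with intervals that included no difference, and thinned to 2000 UMIs it was 1 of 2329 against 1 of 1407 barcodes. In that gate, 5 of 8 members past 2-fold became 8 with at least 2 UMIs of each gate gene (the chow side then being the barcode with antibody RNA), 2 with another cholangiocyte marker required, 3 by the mean over cells and 1 without barcodes of hepatocyte or leukocyte RNA, where Krt18 turned to -0.026. In hepatocytes, 1 member past 2-fold became 2 with the highest doublet scores removed, at least 10000 UMIs, at least 2000 UMIs or without each gene's top barcode, as Sox9 or Cdh1 crossed the bound, and 5 of 9 with 1 UMI enough. Those added at 1 UMI were higher in the NASH diet: Epcam (1 and 5 UMIs), Cd24a (0 and 7), Krt7 (1 and 1) and Krt19 (0 and 2). The share of all genes past 2-fold was not computed under these settings, so nothing is read from the counts. The difference in the share of barcodes with a UMI, in percentage points, was -11.3 for Spp1, and -16.8 unthinned. Thinned to 10000 UMIs it was -10.4 for Sox9, -8.94 for Krt18 and -11.7 for Cdh1, and unthinned -21.1 for Sox9, -15.2 for Cdh1 and -0.67 for Krt8, which was 2.13 at 5000 UMIs. With 2 equal zone parts in place of 3, the log2 ratio of periportal over pericentral was 4.31 and 2.12 for Spp1 in chow and the NASH diet, 0.79 and 0.91 for Sox9, 0.028 and 0.27 for Krt18, and 3.53 and 2.24 for Cdh1; the cause was not tested. The depth of the gate, 3 and 5 barcodes, limits every statement on it.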

Other observations

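Epcam was also read outside the gate, in some barcodes beside genes known from the intestine. In the NASH diet library 3 barcodes over the mitochondrial limit held Epcam but no Cd24a, and they were looked at after their values were seen. The first, with 31298 UMIs of which 43.7% were mitochondrial, held 32 UMIs of Epcam, 11 of Cdh1, 6 of Krt19 and 0 of Spp1, Sox9 and Krt7. It also held 419 UMIs of Prap1 and 161 of Reg1, beside 100 of the intestinal alkaline phosphatase Alpi, 100 of sucrase-isomaltase, Sis, and 29 of lactase, Lct. Alpi, Sis and Lct are known from the brush border of the small intestine. The second, with 21356 UMIs and 78.4% mitochondrial, held 5 of Epcam, 23 of Alpi, 15 of Sis and 5 of Lct. The third held 4 of Epcam and 9 of Spp1 and none of these intestinal genes. In the whole chow library Prap1, Reg1, Alpi, Sis and Lct had 0 UMIs, and in the NASH diet library Alpi had 129 and Sis 140.

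Spp1 in the mesenchymal barcodes of the NASH diet came from 1 barcode, which held 114 of 114 UMIs. Among its 30885 UMIs were 69 of Dcn, 41 of Col3a1 and 21 of Col1a1, which fibroblasts make, beside 58 of Lyz2, 28 of Gpnmb and 6 of Trem2, which macrophages make. Epcam, Krt7, Krt19, Krt8 and Krt18 had 0 UMIs in it.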
